A study of Mus musculus with 4 samples.

Results

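Lox, Loxl1, Loxl2, Loxl3, Plod1, Plod2, P4ha1, Pcolce, Serpinh1 and Fkbp10 encode enzymes and chaperones that modify, fold, trim and crosslink collagen. They were chosen by name, and all 10 were found among the 53465 genes counted in each library. The RNA came from sorted Fgf10-positive cells of the submandibular gland, a salivary gland of the mouse in which epithelial acini and ducts lie in a mesenchymal stroma. There were 2 adult libraries (postnatal day 60, with tamoxifen at days 57 and 58, which the labels write as P57/58) and 2 pup libraries (postnatal day 7, with tamoxifen at days 4 and 5, written as P4/5). Tamoxifen was given at 0.1 mg per g of body weight at both ages. All mice were C57BL/6J and carried the genotype Fgf10CreERT2:Rosa26Tomato fl/fl, in which a tamoxifen-activated Cre driven from Fgf10 switches on a red fluorescent reporter, so that cells with Fgf10 activity around the injections, and any descendants, stay marked. The labels do not say whether the libraries of an age came from separate or pooled animals, and the p-values below rest on the spread between libraries alone, which may be technical.

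Collagen chains are modified in the endoplasmic reticulum before they fold into a triple helix. Prolyl 4-hydroxylase, whose catalytic subunit P4ha1 encodes, makes the hydroxyproline that stabilizes the helix, lysyl hydroxylases (Plod1, Plod2) modify lysines that later take part in crosslinks, and the collagen chaperone HSP47 (Serpinh1) and the prolyl isomerase FKBP65 (Fkbp10) assist folding. Outside the cell, Pcolce encodes an enhancer of the proteinase that removes the C-propeptide, and the lysyl oxidases (Lox, Loxl1, Loxl2, Loxl3) start the crosslinks that fix collagen and elastin in place. Fibroblasts are the main users of this machinery for the fibrillar collagens, while epithelial and endothelial cells also make type IV collagen, the network of basement membranes.

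Gene counts per library lay between 7289792 and 21490686. Pup replicate 1 stood apart: 76.7% of its reads fell outside genes, against 9.70% to 10.6% in the other libraries. A set of 1134 olfactory receptor genes, which these cells are not known to use, gave counts per kb that were 14.0 in it and 0.0664 to 0.151 in the others. At that rate, background was expected to give 1.14% (Serpinh1) to 26.0% (Loxl3) of the counts of the 10 genes in pup replicate 1. The adult libraries differed in cell markers. Summed over 10 mesenchymal markers, adult replicates 1 and 2 had 1084 and 4002 CPM (counts scaled to library size with TMM factors), against 5376 and 11403 CPM in pup replicates 1 and 2. In adult replicate 1, Twist2 was at 0 counts. Of 8 endothelial markers, 6 were at 0 counts in adult replicate 1 (among them Cdh5, Kdr and Tek) and 0 in adult replicate 2, with sums of 17.2 and 1151 CPM, against 130 and 18.4 CPM in pup cells, where Emcn and Cldn5 were at 0 in replicate 2 and background was expected to give 45.4% of the endothelial counts in replicate 1. Esam gave nearly all of the sum in adult replicate 1. The 10 epithelial markers had 10500 and 14238 CPM in adult cells, against 1944 and 4452 CPM in pup cells, and the 8 ionocyte markers 7867 and 4974 CPM, against 167 and 217 CPM, where background was expected to give 32.7% of the counts in pup replicate 1. The smooth muscle and pericyte markers had 4370 and 2121 CPM in adult cells, against 3595 and 11295 CPM in pup cells. Most of this sum was Acta2, with 2907 and 1197 CPM in adult cells, against 2406 and 8235 CPM in pup cells. Between the adults, Rgs5 (22.5 and 105 CPM) and Cspg4 (26.4 and 38.4 CPM) were higher in replicate 2, and the other genes of that list were lower in it. In bulk libraries, fewer cells of a type and less RNA per cell cannot be told apart.

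The adult and pup libraries were compared to ask how the 10 genes differ between the ages. All 10 had negative log2 fold changes of adult over pup, from -2.59 for Loxl2 to -1.27 for Loxl1, with a median of -1.78, while the median over all genes tested was -0.24 and 57.1% of them were negative. The quasi-likelihood test of edgeR called 0 of the 10 genes in either direction at an adjusted p of 0.05, as it called 0% of the 16320 genes tested. At an unadjusted p under 0.05 it gave 3 lower in adult (Loxl2, Loxl3 and Plod2), where the share of all genes was 8.49%, and 0 higher, where it was 5.99%. DESeq2 called 1 gene, Loxl2, lower in adult, against 5.61% of all genes with an adjusted p, and limma-voom called 0 at its adjusted p and had 4 lower at an unadjusted p under 0.05 (Loxl2, Plod1, Plod2 and Fkbp10), against 6.13% of all genes. On the TMM-scaled CPM, both adult libraries lay below both pup libraries for 7 of the 10 genes and for 27.1% of all genes. In TPM (counts per kb of exon, scaled to the same sum in each library) they did so for 9 of the 10, Loxl1 being the exception, and for 37.3% of all genes, and by library totals for the same 9 and for 32.6%. The epithelial and ionocyte markers were higher in both adults than in both pups for 8 of 10 and 8 of 8 genes. There edgeR called 0 and DESeq2 called 5 and 8 higher, against 3.97% of all genes with an adjusted p. The mesenchymal markers were lower in both adults for 8 of 10. The part of these markers in the values of the 10 genes was not tested. On the CPM scale, no gene of the 10 lay above the pups in both adults, where 21.8% of all genes did.

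**Figure D1:**
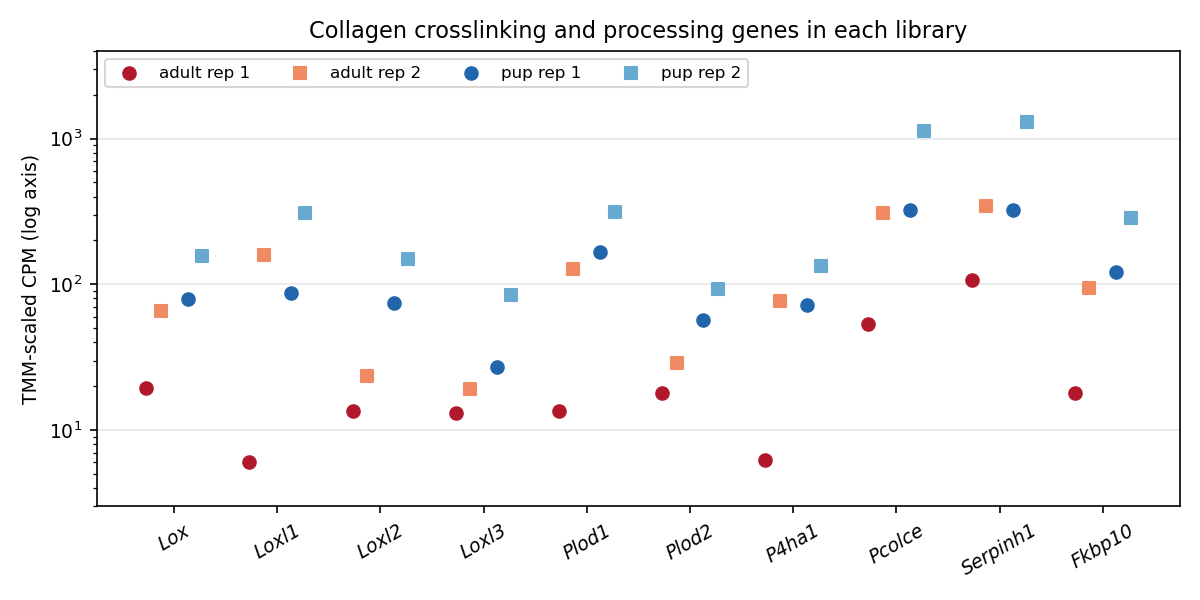
TMM-scaled CPM (log axis) of the 10 genes in each library, adult replicates left of pup replicates; each point is 1 library. Adult replicate 1 was the lowest library for every gene, and adult replicate 2 reached the level of pup replicate 1 for Loxl1, P4ha1 and Serpinh1.

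P4ha1 (ENSMUSG00000019916, chromosome 10, 59323296 to 59373304 in GRCm38) had 6.28 and 77.2 CPM in adult cells, against 72.4 and 134 CPM in pup cells. The adult libraries differed 12.3-fold and the ages overlapped on this scale, with adult replicate 2 just above pup replicate 1. Its log2 fold change was -1.30 ± 1.06 (SE, 2 libraries per age, edgeR adjusted p = 0.666). P4ha2, which encodes an alternative catalytic subunit of the same enzyme and was singled out after its values were seen, ran the other way in its fitted value: it had 36.6 and 87.2 CPM in adult cells, against 16.7 and 48.1 CPM in pup cells, with overlap, and a log2 fold change of 0.93 ± 0.71 (edgeR adjusted p = 0.642). P4hb, the common beta subunit, which also serves as a general disulfide isomerase, had 784 and 1293 CPM in adult cells and 489 and 1339 CPM in pup cells.

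The balance of the 2 catalytic subunits lay apart between the ages in these libraries, although neither gene passed. Per kb of exon, P4ha1 over P4ha2 was 0.260 (95% Wilson interval carried from the counts, 0.206 to 0.329) in adult replicate 1 and 1.34 (1.24 to 1.46) in adult replicate 2, against 6.59 (5.53 to 7.85) in pup replicate 1 and 4.21 (3.90 to 4.54) in pup replicate 2. These intervals cover counting error only. The ages did not overlap, and the mean log2 ratio differed by -3.15 for adult minus pup. An exact two-sided permutation test gave p = 0.33, the smallest that 2 libraries against 2 can give. With the expected background taken off, the ratio in pup replicate 1 was 14.0, since 56.9% of its P4ha2 counts were expected from background. P4ha3, the remaining catalytic subunit, had 0 and 3 counts in the adults, against 92 and 2 in the pups, where 44.0 of the 92 were expected from background. Of the isoenzyme pairs compared in this way, only P4ha1 and P4ha2 lay apart between the ages. For Loxl1 over Loxl2 and for Plod1 over Plod2 the pups lay between the adults. Plod1 over Plod2 was 0.594 and 3.49 in the adults, against 2.33 and 2.69 in the pups.

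The 250 bases before the RefSeq start of P4ha1 and P4ha2 are printed because these genes encode alternative catalytic subunits of 1 enzyme, and those of Serpinh1 and Pcolce because they were the most abundant of the 10. Of the 10 genes, 4 had a window in the RefSeq promoter table (GRCm38.p6), with Lox left out of this lookup. Positions are chr10:59323046-59323295 (plus strand) for P4ha1, chr11:54100674-54100923 (plus) for P4ha2, chr7:99353240-99353489 (minus) for Serpinh1 and chr5:137611405-137611654 (minus) for Pcolce. The windows of P4ha2 and Pcolce lie inside the genes as GENCODE places them (54100095 to 54131665 and 137605103 to 137613784), downstream of the outermost annotated start. Each is written 5′ to 3′ on the gene's strand, and capitals mark ACGTG, the core letters of the site of hypoxia-inducible factors, and GGGCGG, those of the GC box, on either strand.
P4ha1 promoter: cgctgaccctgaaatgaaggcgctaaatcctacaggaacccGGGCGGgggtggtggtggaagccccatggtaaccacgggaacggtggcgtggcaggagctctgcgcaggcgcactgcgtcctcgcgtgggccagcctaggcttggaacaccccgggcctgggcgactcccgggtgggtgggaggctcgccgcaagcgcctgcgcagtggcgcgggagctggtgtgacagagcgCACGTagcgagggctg
P4ha2 promoter: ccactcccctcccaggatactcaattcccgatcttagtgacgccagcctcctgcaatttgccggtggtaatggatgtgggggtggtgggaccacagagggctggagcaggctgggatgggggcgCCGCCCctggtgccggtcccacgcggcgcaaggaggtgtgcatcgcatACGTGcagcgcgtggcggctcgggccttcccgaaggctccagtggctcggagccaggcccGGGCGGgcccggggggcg
Serpinh1 promoter: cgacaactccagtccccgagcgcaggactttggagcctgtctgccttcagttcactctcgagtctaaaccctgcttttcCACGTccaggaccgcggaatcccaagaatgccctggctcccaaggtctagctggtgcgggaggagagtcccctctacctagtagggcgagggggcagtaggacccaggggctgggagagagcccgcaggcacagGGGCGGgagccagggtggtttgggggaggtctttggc
Pcolce promoter: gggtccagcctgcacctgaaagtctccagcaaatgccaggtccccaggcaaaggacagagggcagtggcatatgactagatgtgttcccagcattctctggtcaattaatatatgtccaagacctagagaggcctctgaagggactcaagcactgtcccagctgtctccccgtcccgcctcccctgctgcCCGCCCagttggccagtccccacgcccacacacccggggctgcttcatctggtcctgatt
ACGTG was found once each in the windows of P4ha1, P4ha2 and Serpinh1 and 0 times in that of Pcolce, and 16.6% of all 32851 windows of this length hold it. GGGCGG was found in all 4 windows, with 2 matches in P4ha2, and 32.7% of all windows hold it. A match is a string of letters and no measured site.

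Among the lysyl hydroxylases, Plod1 (ENSMUSG00000019055, chromosome 4, 147909753 to 147936767), which acts on lysines of the triple helix, had 13.5 and 127 CPM in adult cells, against 166 and 313 CPM in pup cells. Both adults lay below both pups, but the adults differed 9.42-fold, and the log2 fold change was -1.77 ± 1.03 (SE, edgeR adjusted p = 0.523). Plod2 (ENSMUSG00000032374, chromosome 9, 92542223 to 92608428), which acts on lysines of the telopeptides, was nearer to even within the adults: it had 18.1 and 29.0 CPM there, against 56.7 and 92.9 CPM in pup cells. The adults differed 1.60-fold, the pups 1.64-fold, and the log2 fold change was -1.67 ± 0.54 (edgeR adjusted p = 0.284, DESeq2 adjusted p = 0.0560). Plod3, the remaining member of the family, which also has glycosyltransferase activity, had 32.5 and 66.8 CPM in adult cells and 35.2 and 108 CPM in pup cells, with overlap (log2 fold change -0.53 ± 0.69). Per kb of exon, Plod3 took 57.3% and 38.0% of the family in the adults, against 18.2% and 27.3% in the pups. Plod1 took 15.9% and 48.2% in the adults, against 57.3% and 53.0% in the pups. The shares of both genes therefore did not overlap between the ages, and those of Plod2 did.

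Serpinh1 (ENSMUSG00000070436, chromosome 7, 99345376 to 99353239) ranked first of the 10 per kb of exon in every library, with 95.0 and 255 TPM in the adults, against 438 and 1168 in the pups. On the CPM scale it had 107 and 343 in the adults, against 325 and 1290.0 in the pups. On that scale adult replicate 2 lay above pup replicate 1, and the pups differed 3.97-fold from each other, more than the adults at 3.21-fold. The log2 fold change was -1.85 ± 1.02 (SE, edgeR adjusted p = 0.496). Fkbp10 (ENSMUSG00000001555, chromosome 11, 100415697 to 100424824), which ranked next after Serpinh1 and Pcolce in adult replicate 1 and in both pups, had 17.9 and 95.0 CPM in adult cells, against 121 and 283 CPM in pup cells. Both adults were below both pups, with a log2 fold change of -1.84 ± 0.90 (edgeR adjusted p = 0.431).

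A list of 9 chaperones that serve secreted proteins in general, among them Hspa5, Hsp90b1, Calr and Canx, was set beside the 10 genes. Its median log2 fold change was 0.11, 3 were negative and 6 positive, 0 were called by edgeR or DESeq2, and in 0 of them did the ages separate. Over all genes, both adults lay below both pups for 27.1% and above for 21.8%. Hspa5, the endoplasmic reticulum HSP70, had 1085 and 1651 CPM in adult cells, against 1070 and 1909 CPM in pup cells. The summed level of the list was 3763 and 4716 CPM in adult cells and 2440 and 5823 CPM in pup cells, and the 10 genes summed to 268 and 1244 CPM in adult cells and 1335 and 3931 CPM in pup cells.

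Pcolce (ENSMUSG00000029718, chromosome 5, 137605103 to 137613784) was second of the 10 per kb in every library. It had 53.8 and 306 CPM in adult cells, against 326 and 1119.7 CPM in pup cells. The adults stood below the pups, adult replicate 2 narrowly, and the log2 fold change was -2.00 ± 1.10 (SE, edgeR adjusted p = 0.490). Bmp1, the C-proteinase that its product enhances, was singled out after its values were seen. It had 32.7 and 75.1 CPM in adult cells, against 215 and 260 CPM in pup cells, a separation of the ages with a log2 fold change of -2.14 ± 0.62 (edgeR adjusted p = 0.272, DESeq2 adjusted p = 0.00401). Adamts2, an N-proteinase of procollagens, had 41.4 and 636 CPM in adult cells, against 101 and 341 CPM in pup cells, and a log2 fold change of 0.62 ± 1.25.

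Of the lysyl oxidases, Loxl2 (ENSMUSG00000034205, chromosome 14, 69609068 to 69695834), known for crosslinking type IV collagen, had the most negative value of the 10, with 13.6 and 23.5 CPM in adult cells, against 74.2 and 149 CPM in pup cells. Both adults were below both pups, and the log2 fold change was -2.59 ± 0.60 (SE, edgeR adjusted p = 0.232, DESeq2 adjusted p = 0.00147). Loxl3 (ENSMUSG00000000693, chromosome 6, 83034173 to 83052562) had 13.1 and 19.2 CPM in adult cells, against 26.9 and 84.7 CPM in pup cells. The adults were within 1.46-fold of each other and below both pups, with a log2 fold change of -1.79 ± 0.70 (edgeR adjusted p = 0.316). Of its exon length 11.6% is shared with Htra2, so some of its reads may have been left uncounted or come from that gene.

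Lox (ENSMUSG00000024529), the founding member of the family, had 19.5 and 65.3 CPM in adult cells, against 79.8 and 156 CPM in pup cells. The ages did not overlap, although adult replicate 2 came close to pup replicate 1, and the log2 fold change was -1.47 ± 0.72 (SE, edgeR adjusted p = 0.429). Loxl1 (ENSMUSG00000032334, chromosome 9, 58287738 to 58313186), known for its part in elastic fibres, had 6.05 and 159 CPM in adult cells, against 87.2 and 309.5 CPM in pup cells. The adults differed 26.3-fold, the most of the 10, and adult replicate 2 lay between the pups. The log2 fold change was -1.27 ± 1.35 (edgeR adjusted p = 0.756).

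The leading lysyl oxidase differed between the adult libraries. Per kb of exon, Loxl1 took 15.7% and 66.9% of the family in the adults, against 40.8% and 53.5% in the pups, and was the largest share in 3 libraries. In adult replicate 1 the largest share was that of Lox, at 34.8%, followed by Loxl3 at 24.3% and Loxl2 at 21.4%. The ratio of Loxl1 to Loxl2 per kb was 0.732 and 11.1 in the adults, against 1.93 and 3.40 in the pups, so that the pups lay between the adults. Loxl4 took 1.75% to 3.88% of the family in any library, and background was expected to give 69.6% of its counts in pup replicate 1.

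**Figure D2:**
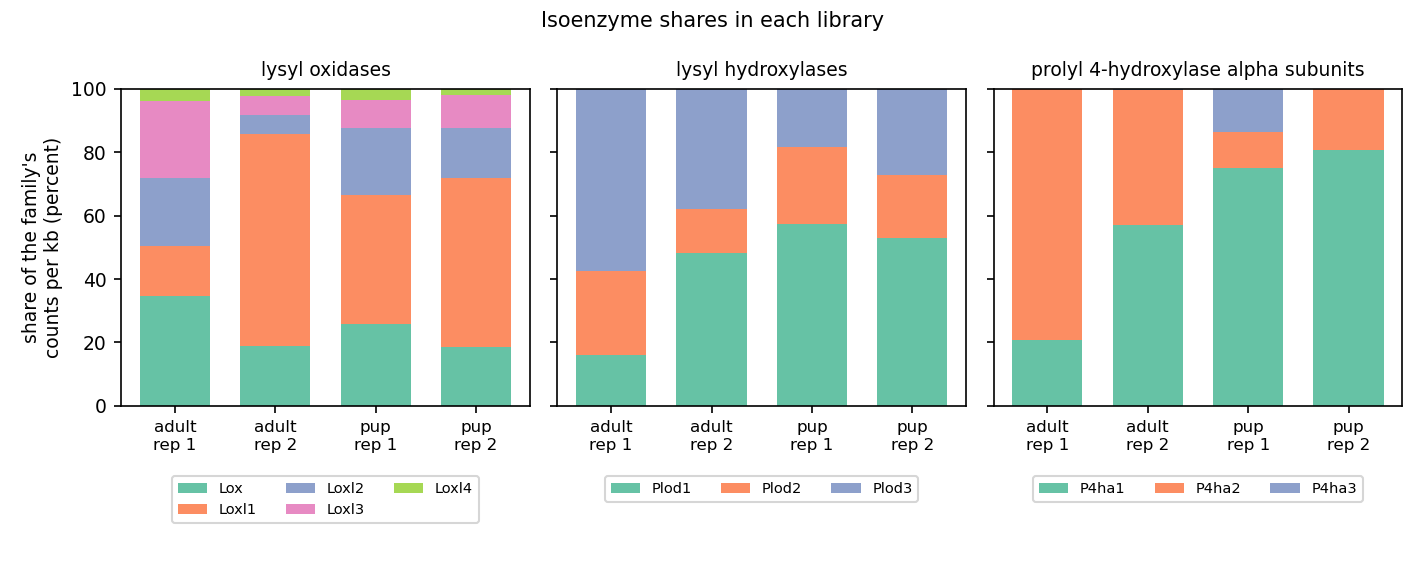
Share of each isoenzyme in its family's counts per kb of exon (percent, stacked from 0), by library, adults left of pups. P4ha1 makes up 20.6% and 57.2% of the catalytic subunits in the adults, against 75.1% and 80.7% in the pups; part of the P4ha3 share in pup replicate 1 was expected from background.

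The 10 genes can be ordered by how far the adult libraries lay apart, adult replicate 2 being higher for each. Loxl3, Plod2 and Loxl2 differed 1.46-fold, 1.60-fold and 1.74-fold between the adults. Serpinh1 and Lox differed 3.21-fold and 3.35-fold, Fkbp10 and Pcolce 5.32-fold and 5.70-fold, and Plod1, P4ha1 and Loxl1 9.42-fold, 12.3-fold and 26.3-fold. The median log2 ratio of adult replicate 2 over adult replicate 1 was 2.07 over the 10 genes, 6.41 over the fibrillar collagens, 2.16 over the mesenchymal markers, 1.13 over the type IV collagens and 0.06 over all genes tested. Of the marker lists, the mesenchymal and endothelial sums were higher in adult replicate 2, and the ionocyte and smooth muscle sums were higher in adult replicate 1. In the smooth muscle and pericyte list, Rgs5 and Cspg4 ran the other way. The epithelial sum was higher in adult replicate 2, where Krt8 and Krt18 were higher, but the median log2 ratio over the epithelial list was -0.37. The part of the marker lists in these values was not tested.

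**Figure D3:**
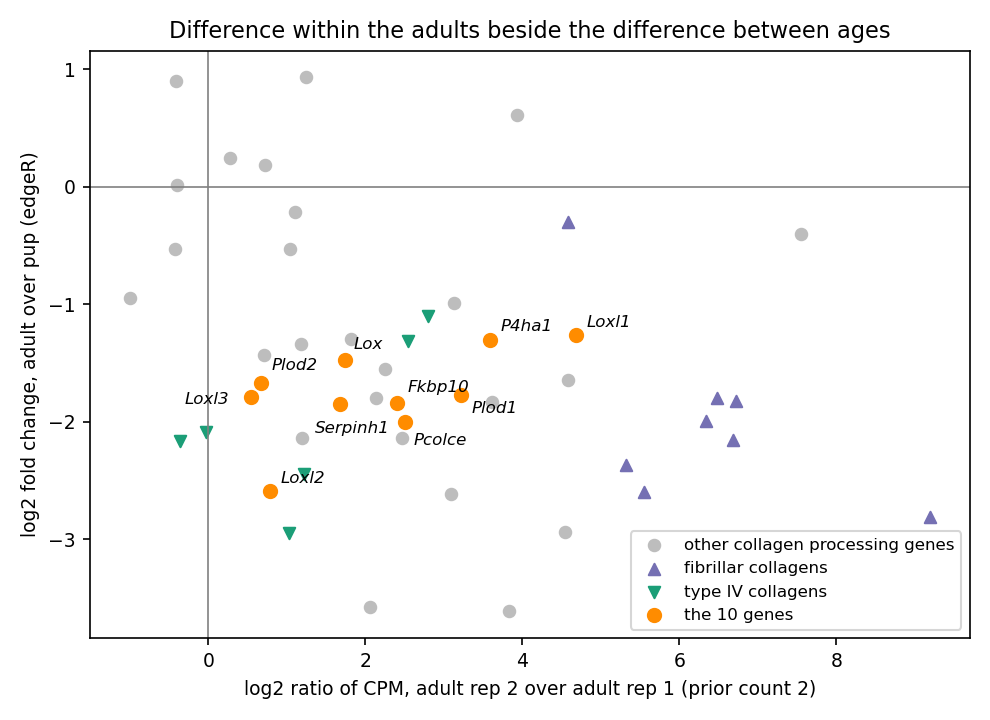
Log2 ratio of CPM between the adult libraries (x, prior count of 2) against the edgeR log2 fold change of adult over pup (y); each point is 1 gene. The 10 genes lie at similar heights but spread along x from Loxl3 to Loxl1. The main fibrillar collagens lie further along x than the 10 genes, and the type IV collagens Col4a5 and Col4a6 lie at lower x than any of the 10.

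The size of the difference between ages therefore depended on which adult library was used. In fits that leave out a library, the remaining library of that age stands alone and gives no spread of its own. The SE, adjusted p and calls of such fits rest on the assumption that it varies like the other age. Without adult replicate 2, the log2 fold change of Loxl1 was -5.03 ± 1.45 (SE) and that of P4ha1 -4.03 ± 1.12, and edgeR called both lower in adult (adjusted p = 0.0142 and 0.00970), 2 of the 10 genes against 4.49% of all genes. Without adult replicate 1 they were -0.35 and -0.45, and 0 of the 10 were called, against 0.987% of all genes. Over all the alternatives run, the adjusted p of Loxl1 lay between 0.0142 and 0.99997 and that of P4ha1 between 0.00970 and 0.99997. Loxl2 stayed between -3.04 and -2.00 and Plod2 between -2.05 and -1.27, whichever library was left out or scaling used. The median of the 10 was -3.27 without adult replicate 2, -1.19 without the other adult, and -2.25 and -0.88 without pup replicates 1 and 2.

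**Figure D4:**
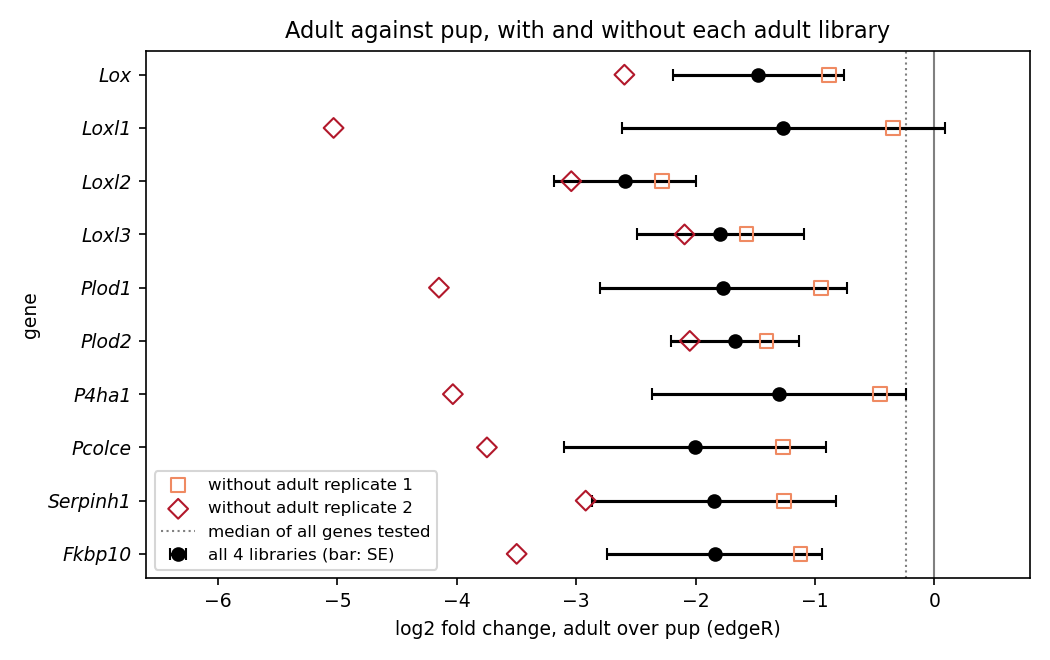
EdgeR log2 fold change of adult over pup with its SE (2 libraries per age), and the values without either adult library. Loxl1, P4ha1 and Plod1 shift furthest when adult replicate 2 is left out, to -5.03, -4.03 and -4.15, while Loxl2, Loxl3 and Plod2 shift least.

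Set against the fibrillar collagens, the 10 genes stood high in adult replicate 1. Summed per kb of exon, the 9 fibrillar collagen genes came to 53.5 and 3887 TPM in the adults, against 8179 and 12722 in the pups, and the 10 genes to 178 and 667, against 1234 and 2624. Per 1000 counts per kb of fibrillar collagen, the 10 genes together thus had 3331 and 172 in the adults, against 151 and 206 in the pups. Adult replicate 1 was 16.2 times the higher pup, while adult replicate 2 lay between the pups. Each of the 10 genes had its highest such ratio in adult replicate 1, from 4.57 times the higher pup for Loxl1 to 36.1 times for Loxl3. Serpinh1 had 1775 and 65.7 per 1000 in the adults, against 53.6 and 91.8 in the pups, and P4ha1 62.1 and 8.80, against 7.08 and 5.65. Without Serpinh1, the largest contributor, the sum gave 1556 and 106 in the adults, against 97.2 and 114 in the pups.

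Ratios to other lists were added after these values were seen. Per 1000 counts per kb of type IV collagen genes, the 10 genes together had 906 and 1924 in the adults, against 709 and 1074 in the pups, so that adult replicate 1 lay between the pups and adult replicate 2 was 1.79 times the higher pup. Loxl2 on this scale had 27.7 and 22.9 in the adults, against 26.0 and 25.0 in the pups. Loxl1 had 20.3 and 253 in the adults, against 50.0 and 85.0 in the pups, a wider range than its 74.6 and 22.6 in the adults, against 10.6 and 16.3 in the pups, over the fibrillar collagens. Per 1000 counts per kb of the mesenchymal markers, the 10 genes together had 398 and 414 in the adults, against 330 and 448 in the pups, and Fkbp10 had 29.5 and 36.6, against 36.3 and 36.4. The closeness of the sums rested on Dcn, which made up 70.0% of the marker sum in adult replicate 1 and 40.3% to 49.6% in the other libraries. Without Dcn the values were 1329 and 720 in the adults, against 655 and 751 in the pups.

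**Figure D5:**
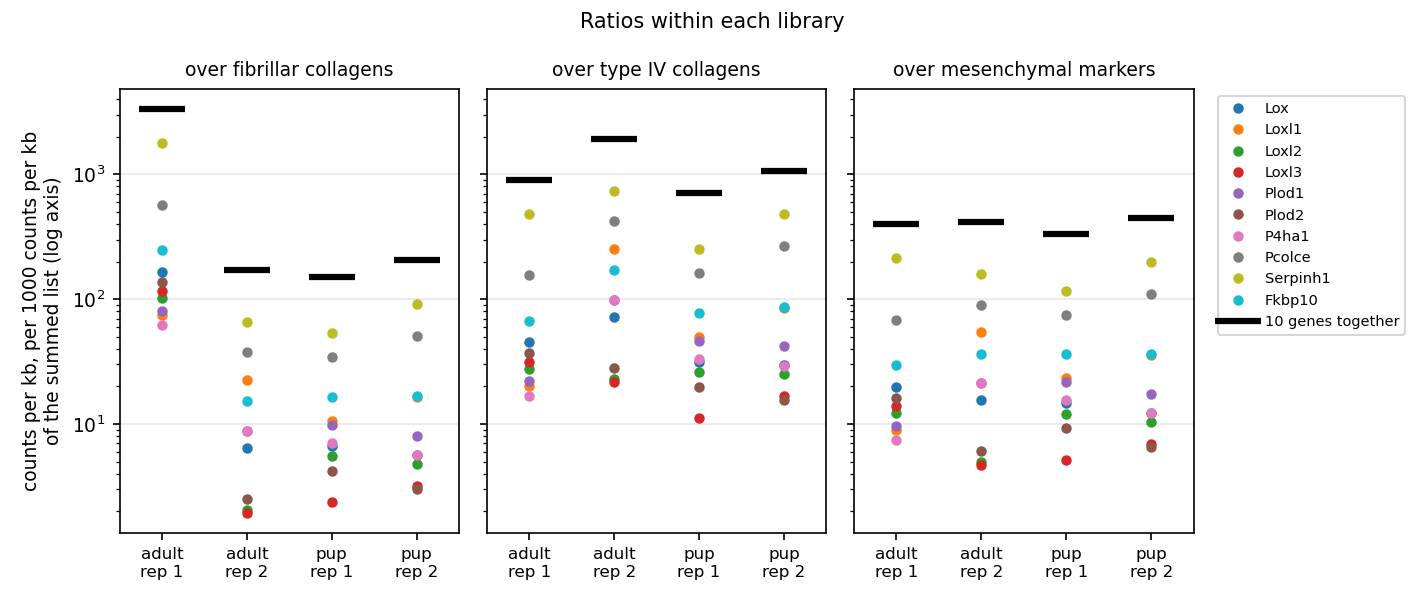
Counts per kb of exon of each of the 10 genes, and of all 10 together (black bars), per 1000 counts per kb of the summed fibrillar collagens, type IV collagens or mesenchymal markers, in each library (log axis), adults left of pups. Over the fibrillar collagens adult replicate 1 stands above the other libraries for every gene, and over the other lists the 10 genes together lie within 709 to 1924 and within 330 to 448.

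The rest of the pathway was described by a list of 27 other collagen processing genes, of which 25 entered the test. EdgeR called 0 of them. At an unadjusted p under 0.05 it gave 4 lower in adult, where the share of all genes was 8.49%, and 0 higher, where it was 5.99%. DESeq2 called 3 lower (Bmp1, Colgalt2 and Adamts14), against 5.61% of all genes with an adjusted p, and 0 higher, against 3.97%. The median log2 fold change was -1.29, with 19 negative and 6 positive, where 57.1% of all genes were negative. Of the 25, 9 had both adults below both pups and 2 above, where the shares of all genes were 27.1% and 21.8%. Of the prolyl 3-hydroxylation complex, whose genes were picked after their values were seen, P3h1 and its partner Crtap had log2 fold changes of -2.62 ± 1.03 and -2.14 ± 0.96 (SE), and Ppib, the cyclophilin of the same complex, 0.02 ± 0.64. None of these 3 passed (edgeR adjusted p = 0.323, 0.393 and 0.993), and the difference between them was not tested. Of the exon length of Ppib, 25.0% is shared with Snx22. Of the most abundant genes, Sparc, which encodes a secreted collagen-binding protein, had 855 and 4075 CPM in adult cells, against 3740 and 10723 CPM in pup cells, and Fkbp9 89.3 and 203 CPM, against 191 and 548 CPM.

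The collagens themselves were not called either by edgeR. Of 9 fibrillar collagen genes 8 were tested, and all 8 were negative with a median of -2.07, where 57.1% of all genes were negative. DESeq2 called 0 of them. Both adults were below both pups for 6 of the 8, against 27.1% of all genes. The most abundant, Col3a1, Col1a2 and Col1a1, differed 81.2-fold, 89.5-fold and 106-fold between the adults, with adult replicate 2 higher. Col1a2 had 57.1 and 5109 CPM in adult cells, against 5021 and 12937.5 CPM in pup cells, with overlap. Col5a1, a fibril-initiating chain, had 13.2 and 531 CPM in adult cells, against 884 and 1935 CPM in pup cells. All 6 type IV collagen genes were negative with a median of -2.12. Both adults were below both pups for each, against 27.1% of all genes. DESeq2 called 4 of the 6 lower in adult, against 5.61% of all genes with an adjusted p. Among these, Col4a1, the most abundant, had 366 and 855 CPM in adult cells, against 2227 and 4436 CPM in pup cells. Col4a2 had 167 and 340 CPM, against 1159 and 2752 CPM. Col4a5 had 82.3 and 80.8 CPM in adult cells, against 235 and 457 CPM in pup cells (log2 fold change -2.09 ± 0.62). The adults were nearly even for Col4a5, but differed 2.33-fold for Col4a1, 2.04-fold for Col4a2, 5.90-fold for Col4a3 and 7.05-fold for Col4a4, with adult replicate 2 higher.

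The genes whose profile over the 4 libraries was nearest to the median profile of the 10 were Fkbp7, Tppp3, Chpf, C1ra and Nr3c1. Likeness was the root mean square difference of centred log2(CPM + 1), which was 0.06 for Fkbp7 and 0.11 for Nr3c1 over 10374 candidate genes of at least 10 mean CPM. Fkbp7, another prolyl isomerase of the endoplasmic reticulum and itself on the list of other processing genes, had 13.7 and 60.6 CPM in adult cells, against 81.6 and 177 CPM in pup cells. Of the 10 genes, Fkbp10 was nearest to their own median profile at 0.13 and Loxl1 farthest at 0.90.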

How the data were processed

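The deposited values are raw read counts per Ensembl gene, 1 file per library, as the authors deposited them. The submitters' processing notes name cutadapt 1.18, STAR 2.5.2a, HTSeq 0.11.0, R 3.5.1, DESeq2 1.20.0 and the build GRCm38. How reads were counted, on which annotation release and with which strand setting, is not given in the sources used here. Per the labels' protocols, libraries were made from 1 ng of total RNA with the SMART-Seq HT kit. HTSeq's tally rows, 31.5% to 84.4% of reads, were left out, as were 8 columns of 2 tables of the whole series whose names match no single sample.

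Of 53465 genes, 53360 matched GENCODE vM21, the source of positions and exon lengths. The test was edgeR 4.0.16 (quasi-likelihood, TMM, filterByExpr with a minimum count of 10 and minimum total of 15, age as the only term, Benjamini-Hochberg over 16320 genes) in R 4.3.3, with DESeq2 1.42.0 and limma-voom 3.58.1 as alternatives. Positive values mean higher in adult. The fit was tested on simulated data. SD and SE have n = 2 per age, except in fits with a library left out, where an age has a lone library. The SE, adjusted p and calls of those fits rest on the assumption that the lone library varies like the other age. Levels between genes are counts per kb of exon, or TPM computed from them.

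The 10 genes and all lists were chosen with earlier results of these data known. Text names were set by rule: the 10 genes, the 4 most abundant tested genes of a list with no call, and the 5 nearest profiles. Genes outside it were chosen after their values were seen: P4ha2, P4ha3, Plod3, Loxl4, Bmp1, the other DESeq2 calls, P3h1, Crtap and Ppib. Also named outside the rule are Canx, Col4a6, Cspg4 and the markers Twist2, Cdh5, Kdr, Tek, Cldn5 and Cd3e, given for their counts. Of the genes the rule gives, those that bear on no result of the 10 are covered by list counts. Alternatives were other scalings and filters, a replicate block, each library left out (on the 16320 genes, the lone library of an age being assumed to vary like the other age) and the pup replicate 1 background taken off.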

Additional observations from a re-analysis of the deposited data

How the results depend on the processing

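Every one of the 130 values of the 10 genes recomputed under 13 alternatives stayed negative. The nearest to 0 was -0.08, for Loxl1 without pup replicate 2. In the alternatives that kept 2 libraries per age, only Loxl2 passed the threshold, by DESeq2. EdgeR called 284 genes higher and 231 lower in adult with no filter beyond 1 count, and 13 and 2 when 10 counts were asked of every library of an age. DESeq2 called 610 and 862, among them 1 of the 10 genes. Leaving out each library in turn gave 0 to 247 genes higher and 0 to 733 lower, 0 to 2 of the 10 genes lower, and a median of the 10 between -3.27 and -0.88. The cause was not tested. With the replicate number as a block, edgeR called 0 and 0 genes, 0 of the 10, and their median was -2.15. The numbers are not stated to mark a shared animal or batch, and replicate 1 less replicate 2 in the adults correlated with the same difference in the pups at r = -0.10 over 16320 genes. Library totals, DESeq2 size factors and upper-quartile factors moved the median of all genes to -0.62, -0.31 and -0.42 and that of the 10 to -2.02, -1.84 and -1.92. Taking the background off pup replicate 1 gave -1.87, and moved 3 of the 11 fibrillar ratios there by more than the spread between the pups (Loxl2 to 4.94, Loxl3 to 1.75 and Fkbp10 to 16.0 per 1000). With 2 libraries per age the spread within an age rests on 1 difference. The lowest count among the 10 genes was 79, for Loxl1 in adult replicate 1.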

Other observations

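Hypoxia-responsive genes, a group that in other settings includes P4ha1, Plod2 and Lox among its targets, had no common direction here. Of 14 tested, 7 were negative and 7 positive with a median log2 fold change of 0.03, and edgeR called 0 of them. At an unadjusted p under 0.05 it gave 1 higher and 2 lower, where the shares of all genes were 5.99% and 8.49%. DESeq2 called 1 higher, against 3.97% of all genes with an adjusted p, and 0 lower. Slc2a1, the glucose transporter GLUT1, had 190 and 353 CPM in adult cells, against 39.0 and 81.2 CPM in pup cells, and was called higher in adult by DESeq2 (adjusted p = 0.00892). Ldha, a lactate dehydrogenase subunit, had 1127 and 899 CPM in adult cells, against 252 and 678 CPM in pup cells, and did not pass by either test. Vegfa and Adm ran the other way, with both adults below both pups, and did not pass either. Vegfa had 134 and 123 CPM in adult cells, against 144 and 277 CPM in pup cells. Adm had 37.4 and 58.5 CPM in adult cells, against 98.8 and 146 CPM in pup cells.

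The 7 leukocyte markers tested had a summed 134 and 220 CPM in adult cells, against 106 and 34.3 CPM in pup cells, where background was expected to give 48.4% of the counts of the list in replicate 1. The adult sums rested mostly on Cd74, which had 93.3 and 190 CPM in adult cells, against 8.33 and 25.8 CPM in pup cells. Over the list, the median log2 ratio of adult replicate 2 over adult replicate 1 was -0.50. No marker of the epithelial, ionocyte or smooth muscle lists was at 0 counts in any library, and Cd3e was at 0 in both adults and in pup replicate 2.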
